A study of Mus musculus with 6 samples.

Results

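The genes described here encode the proteins of the cytosolic ribosome, in thymic natural killer (NK) cells of the mouse. They were chosen by symbol: every gene named Rpl or Rps followed by a digit, together with Rplp0, Rplp1, Rplp2 and Rpsa, and without the Rps6k kinases and the copies marked -ps. This gave 91 of the 26332 genes in the deposited table, of which 55 belong to the large subunit and 34 to the small one. The other 2, Rps19bp1 and Rps23rg1, match the naming pattern but encode no subunit protein. Of these 91 genes, 89 had enough counts to be tested. The study compared 4 wild-type (WT) mice with 2 mice lacking Tcf7 through a knockout (KO). TCF-1, its product, is a transcription factor needed by developing T cells and innate lymphoid cells. All were C57BL/6 mice, and each library came from an individual animal, sorted as NKp46+ NK1.1+ cells without CD8, CD3, TCRbeta or CD1d tetramer staining. By their labels, the males were WT 1, WT 3 and KO 1 and the females WT 2, WT 4 and KO 2. Neither the design of the KO allele nor the age of the mice was stated in the labels.

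A ribosome translates messenger RNA into protein. Its small subunit binds the message and checks each codon, and its large subunit joins the amino acids and holds the tunnel through which the new chain leaves. The ribosomal proteins are needed in near-equal numbers, and their messages typically begin with a short run of pyrimidines, the terminal oligopyrimidine (TOP) tract, through which growth signalling by mTOR acts on their translation. RNA-seq measures the amount of message, so translation itself was not measured here.

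The libraries held 16418910 to 31155303 gene counts. Levels are given as CPM, that is, counts scaled to a common library size and corrected for library composition, and as CPM per kilobase (kb) of gene length wherever levels of different genes are compared. Tcf7 itself was at 943, 947, 811 and 880 CPM in WT 1 to WT 4 and at 268 and 452 CPM in KO 1 and KO 2, a log2 fold change of -1.35 (SE 0.17, edgeR adjusted p = 2.94e-03). The counts cover the whole gene, and the deleted part is not given, so they check the labels only as far as the message as a whole fell. The NK markers were present in every library: the 9 genes of that list summed to 13667 to 14512 CPM in WT, and to 13715 and 11775 CPM in KO 1 and KO 2. Eomes and Klrb1c, which are NK genes, were the 2 of the 9 that passed the test, both lower in KO. Markers of other cells also differed. The 6 B cell markers summed to 4.01 to 12.7 CPM in WT and to 156 and 44.9 CPM in KO, and 5 of them were called higher in KO. The 9 alpha-beta T cell markers summed to 252 to 505 CPM in WT and to 748 and 495 CPM in KO, with 2 called higher and 1 called lower. Of the 9, 8 were above 0, and the median log2 fold change was 1.38. Cd28 was the 1 called lower, with a mean of 203 CPM in WT and 78.8 CPM in KO. The 8 myeloid markers summed to 324 to 397 CPM in WT and to 401 and 392 CPM in KO, with 2 called higher. These close sums hide differences between single genes: of the 7 tested, 6 were above 0 and 1 below, with a median log2 fold change of 3.22. The 7 stromal markers summed to 108 to 119 CPM in WT and to 270 and 448 CPM in KO, with 4 called higher, and Col3a1 had 0 counts in every WT library. The part of these other cells in the results below was not tested.

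The messages of ribosomal proteins made up a smaller share of all gene counts in both KO libraries than in any WT library. The 91 genes took 2.14%, 2.03%, 2.00% and 2.32% of the counts in WT 1 to WT 4, and 1.61% and 1.55% in KO 1 and KO 2. The groups did not overlap, and the 95% Wilson interval of each share reached at most 0.00673 percentage points to either side, which covers counting error only. The mean was 2.12% ± 0.143 (SD, n = 4) in WT and 1.58% ± 0.0395 (SD, n = 2) in KO. In bulk samples, fewer cells of a type and less RNA per cell cannot be told apart.

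Both subunits gave a smaller share of the counts in KO. Large subunit genes gave 1.13%, 1.07%, 1.06% and 1.22% of the counts in WT 1 to WT 4, and 0.849% and 0.815% in KO 1 and KO 2. Small subunit genes gave 1.01%, 0.956%, 0.942% and 1.10% in WT, and 0.755% and 0.733% in KO. The ratio of large to small subunit counts was 1.12 ± 0.00534 (SD, n = 4) in WT and 1.12 ± 0.00913 (SD, n = 2) in KO. It ranged from 1.11 to 1.12 in all 6 libraries, and over all genes it differed between the groups by less than the spread between replicates. This did not hold without the 2 genes of highest count in each subunit: the ratio was then 1.12 ± 0.00648 (SD, n = 4) in WT, with a range of 1.11 to 1.13, and 1.07 ± 0.00385 (SD, n = 2) in KO, with a range of 1.07 to 1.08. Without those genes the groups did not overlap, and the large subunit share was the lower one relative to the small in KO.

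**Figure D1:**
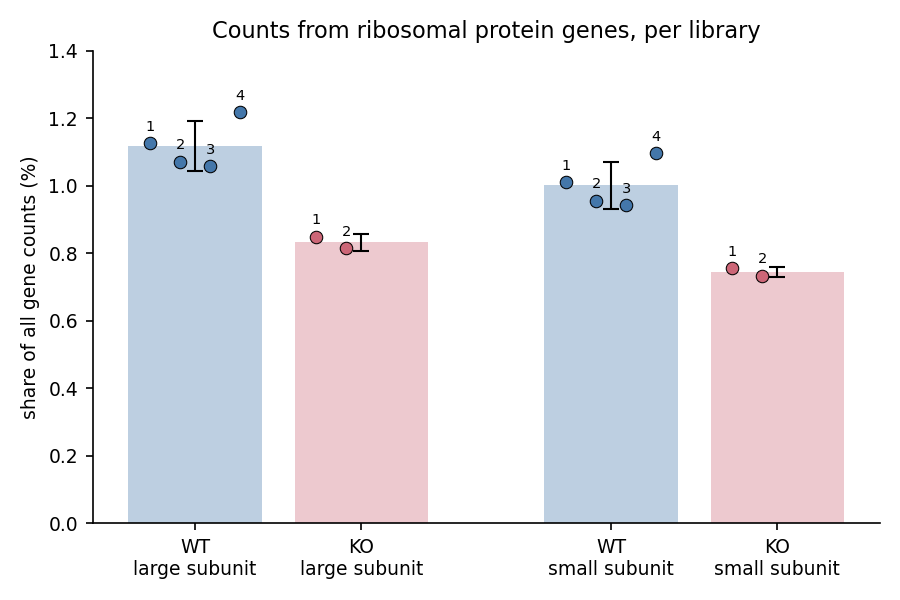
Share of all gene counts (%) taken by large and by small subunit genes; numbered points are the libraries of each group (WT in blue, KO in red), bars are group means and error bars are SD (n = 4 WT, n = 2 KO). For both subunits the KO libraries, at 0.733% to 0.849%, lie below all WT libraries of that subunit, which are at 0.942% to 1.22%.

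Gene by gene, 43 of the 89 tested genes were called lower in KO by edgeR's quasi-likelihood test at a Benjamini-Hochberg adjusted p under 0.05, taken over all 13652 tested genes. Of all tested genes, 5.58% were called lower. Only 1 ribosomal protein gene, Rps4l, was called higher, where 8.13% of all tested genes were, and 13.7% of all tested genes were called in either direction. The calls were spread over both subunits, with 25 of 53 large subunit genes and 18 of 34 small subunit genes called lower. The log2 fold change of KO against WT was below 0 for 80 of the 89, against 48.3% of all tested genes. Its median was -0.48 over the 89 genes, a fold of 0.719, while the median of all tested genes was 0.02. For the large subunit the median was -0.44 and for the small subunit -0.52. In 61 of the 89 genes both KO libraries lay below all WT libraries, against 18.8% of all tested genes, and in 1 both lay above, against 20.5%. The number called depends on the libraries: leaving out WT 1 or WT 3 gave 23, where 2.48% and 2.59% of all tested genes were called lower. Only 29 were called without WT 3 and WT 4 together, where 3.87% of all tested genes were. Fewer were also called without KO 1 or without KO 2, fits that keep 1 KO library. The median stayed between -0.55 and -0.41 without WT 1, WT 3, KO 1 or KO 2.

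The genes called lower fell by log2 values of -0.32 to -1.47, with a median of -0.58 and adjusted p from 1.28e-03 to 0.0484. The 45 genes that were not called ran from -1.20 to 1.05, and 37 of them were below 0. Their standard errors were larger, with a median of 0.21 against 0.12 for the genes called lower. Calls were more frequent among abundant messages. Of the 39 genes with a mean of at least 100 CPM over all libraries, all 39 were below 0 and 29 were called lower. Of the 17 genes with a mean under 10 CPM, 15 were below 0 and only Rps29 was called. Rpl10l had 0 counts in every library, where 3 counts are worth 0.0963 to 0.183 CPM, and Rpl3l had 5 counts, all of them in KO 2. Neither was tested.

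**Figure D2:**
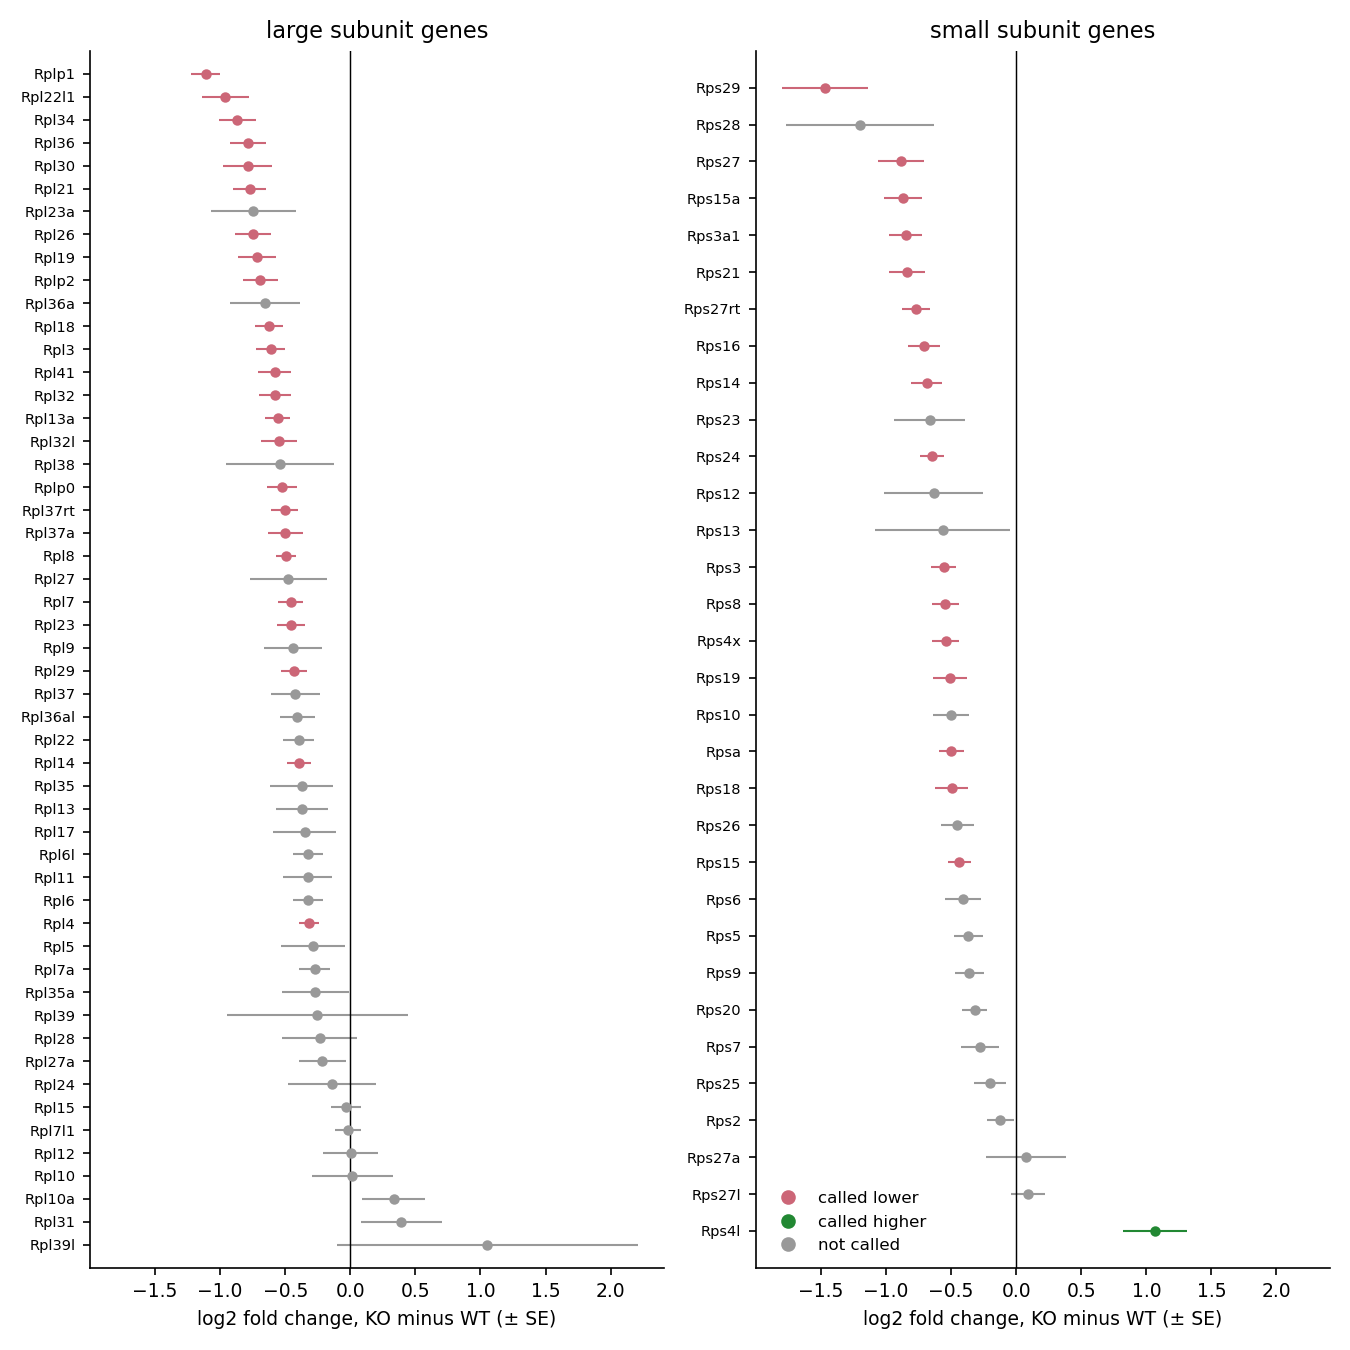
Log2 fold change of KO against WT (x axis, with its standard error as a bar) for the large and small subunit genes reported here, ordered by size, with genes called lower in red, called higher in green and not called in grey. Of all genes tested, 48 of 53 in the large subunit and 31 of 34 in the small subunit are below 0, and Rps4l, at 1.07, is the point called higher.

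The WT libraries themselves differed in ribosomal protein messages. The deviation of each gene from its WT mean was taken on the log2 scale of CPM + 0.5, and its median over the 89 genes was 0.00, -0.07, -0.06 and 0.14 in WT 1 to WT 4. In WT 4, 82 of the 89 genes were above their WT mean. The medians in KO 1 and KO 2 were -0.42 and -0.50, with 10 and 6 genes above 0. The spread among WT libraries was thus shared by most of the genes and was smaller than their distance from the KO libraries. The same median over all other tested genes lay between 0.00 and 0.02 in all 6 libraries. For the 8 immediate early genes, which respond within minutes to cell handling and stimulation, WT 3 and WT 4 stood apart from WT 1 and WT 2. These genes summed to 820, 778, 2810 and 4845 CPM in WT 1 to WT 4, and to 445 and 540 CPM in KO 1 and KO 2. Without WT 3 and WT 4, the median log2 fold change of the 89 ribosomal protein genes was -0.42, and 77 of them were below 0.

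**Figure D3:**
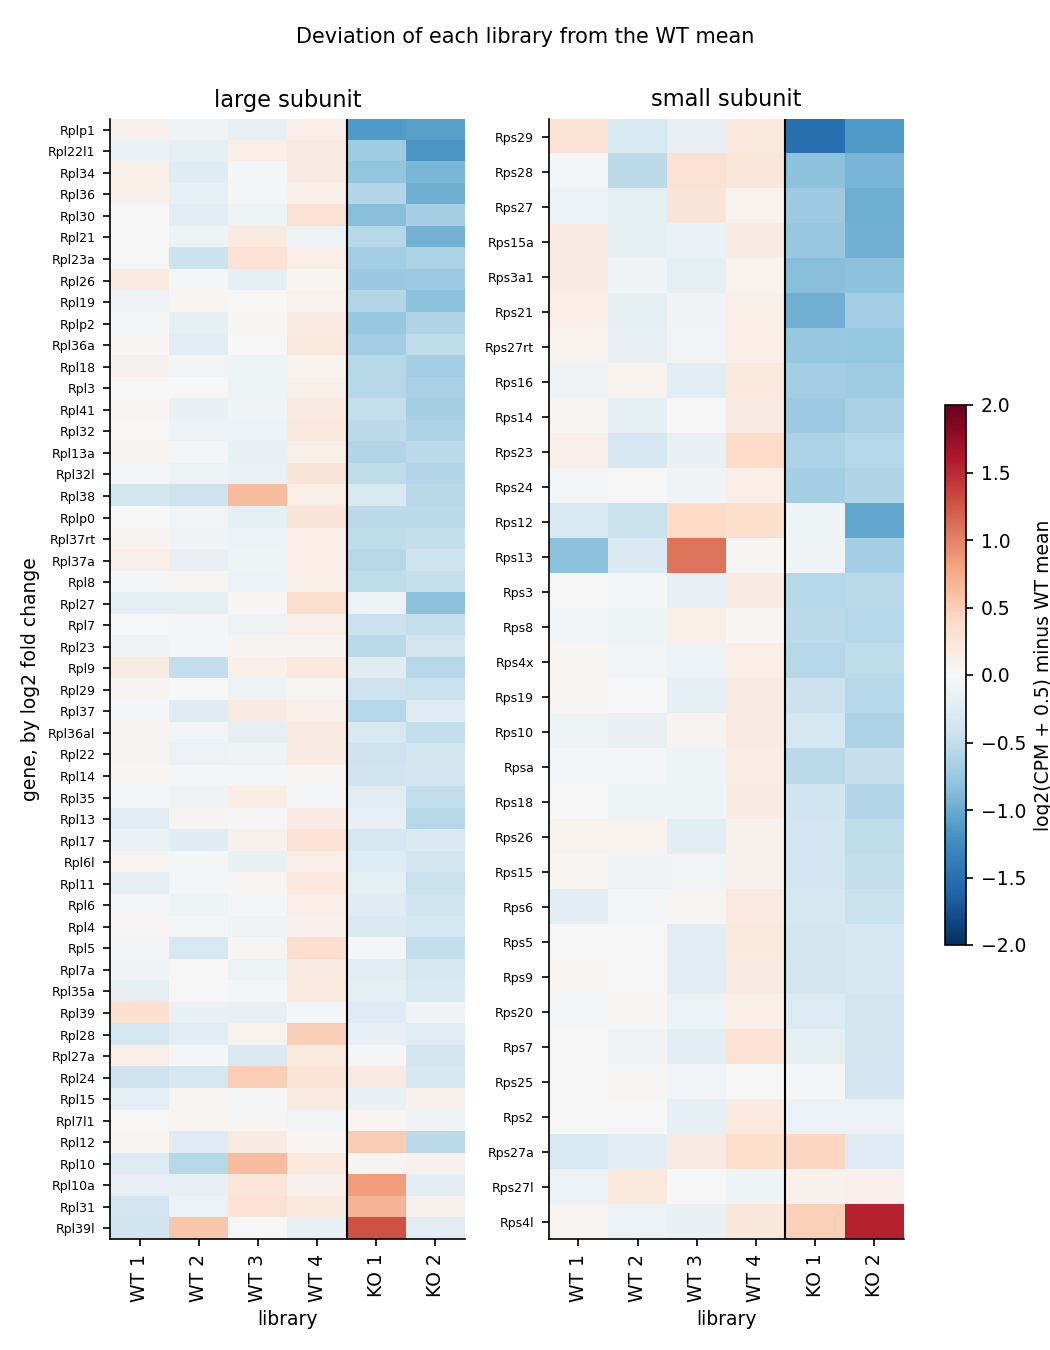
Deviation of each library (columns) from the WT mean, as log2 of CPM + 0.5, for the large and small subunit genes reported here (rows, ordered by fold change), in blue where lower and red where higher. KO 1 and KO 2 are lower in most rows, and of all genes tested WT 4 is above the WT mean in 48 of 53 in the large and 33 of 34 in the small subunit.

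Pyrimidine tracts were found at the annotated starts of a minority of these genes, at a higher share than in all genes. RefSeq promoter windows of build GRCm38.p6 were found for 69 of the 91 genes. The annotated start was a C followed by 4 pyrimidines in 15 of the 69 (21.7%), against 3.01% of the 27025 genes in the table. A run of at least 8 pyrimidines within 5 bases of the start was found in 26 of the 69 (37.7%), against 9.02%. The sequences below are 30 bases long, 5′ to 3′, with base 16 at the annotated start. Capitals mark the longest run of pyrimidines that begins with C and reaches within 5 bases of that start. Rplp2, Rps15a, Rps21, Rps27 and Rps27rt were called lower and start with a C followed by 4 pyrimidines, while Rpl22l1 and Rpl34 were called lower with another start. Where a gene has several annotated starts, a single start is shown, and the run of Rpl34 goes on beyond its window. Rps27l and Rpl7l1, related copies that did not pass the test, stand for contrast.
Rplp2: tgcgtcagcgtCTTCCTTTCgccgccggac
Rps15a: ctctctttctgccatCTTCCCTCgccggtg
Rps21: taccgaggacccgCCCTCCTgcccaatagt
Rps27: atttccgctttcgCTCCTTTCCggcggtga
Rps27rt: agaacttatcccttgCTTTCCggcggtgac
Rpl22l1: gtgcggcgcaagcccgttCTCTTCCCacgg
Rpl34: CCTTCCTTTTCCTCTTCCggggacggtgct
Rps27l: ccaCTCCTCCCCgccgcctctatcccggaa
Rpl7l1: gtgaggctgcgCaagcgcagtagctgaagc

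These windows lie at chr7:141447636-141447665 (plus strand) for Rplp2, chr7:118116133-118116162 (minus) for Rps15a, chr2:180257364-180257393 (plus) for Rps21, chr3:90213634-90213663 (minus) for Rps27 and chr9:114982725-114982754 (minus) for Rps27rt. Those of Rpl22l1, Rpl34, Rps27l and Rpl7l1 lie at chr3:28805493-28805522 (plus), chr3:130730323-130730352 (minus), chr9:66946071-66946100 (plus) and chr17:46782642-46782671 (minus). Of the 28 genes called lower that have a window, 8 had the C and 4 pyrimidines at the start, and of the 39 others tested, 7 had them. The median log2 fold change was -0.50 for the 15 genes with this start and -0.44 for the 52 without it. The letters CTTTGA, a core motif of TCF factors, or their complement TCAAAG on either strand, were looked for in the 300-base windows. They occurred in 4 of the 69 genes (5.80%), namely Rpl10l, Rpl39, Rpl6 and Rps3a1. The share was 18.2% of all genes in the table and 14.2% of the tested genes that have a window. A match describes letters only.

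At the stalk of the large subunit, which recruits the elongation factors, 3 of 4 genes were called lower, and the median log2 fold change was -0.61. Counts by region, here and below, stand beside 43 of 89 called lower in the family and 5.58% of all tested genes. Rplp1, at chr9:61913283-61914510, had the largest fall of any large subunit gene: 1055, 940, 876 and 1083 CPM in WT 1 to WT 4 against 450 and 465 CPM in KO 1 and KO 2. No KO value came near a WT value, and the fold was -1.11 on the log2 scale (SE 0.11, adjusted p = 1.28e-03). Per kb it was also the most abundant of all 91 genes in WT, at 2112 CPM per kb. Rplp2, its partner in the stalk dimers, fell as well, from 61.0, 55.3, 63.5 and 71.9 CPM to 37.0 and 41.1 CPM (-0.69, SE 0.14, adjusted p = 0.0175). Rplp0, which anchors the dimers to the ribosome, fell from 1158, 1129, 1022 and 1391 CPM to 811 and 816 CPM (-0.53, SE 0.12, adjusted p = 0.0248). Rpl12, which forms the base of the stalk, was at 27.1, 22.1, 29.9 and 27.1 CPM in WT and at 37.6 and 18.2 CPM in KO, with KO 1 above and KO 2 below all WT libraries. Rplp1 kept its call in all 20 alternatives. The adjusted p of Rplp0 was 0.0828, 0.0607 and 0.140 when WT 1, KO 1 or KO 2 was left out, and that of Rplp2 was 0.0543, 0.0608, 0.106 and 0.0694 when WT 1, WT 3, KO 1 or KO 2 was.

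In a list of 6 genes for the neighbourhood of the peptidyl transferase centre, where the peptide bond is made, 3 were called lower. Rpl8, at chr15:76904071-76906318, fell from 1594, 1644, 1503 and 1765 CPM to 1138 and 1168 CPM (-0.49, SE 0.08, adjusted p = 7.70e-03), and did so in all 20 alternatives. Rpl3, whose protein reaches towards the centre, fell by 0.61 on the log2 scale (adjusted p = 0.0126, and 0.0960 without KO 2). Rpl4, which lines the start of the exit tunnel, had the smallest fall of any called gene, from 1847, 1798, 1729 and 1928 CPM to 1487 and 1443 CPM (-0.32, SE 0.08, adjusted p = 0.0358). Its call did not hold when any library was left out, with adjusted p of 0.068 to 0.146. Rpl10, which completes the centre late in assembly, varied widely among the WT libraries, at 19.9, 16.2, 38.1 and 28.1 CPM, and KO 1 and KO 2 at 25.2 and 25.7 CPM lay within that range. Rpl27 and Rpl10a were the other genes of the list, at -0.48 and 0.33 with adjusted p of 0.334 and 0.404. Neither protein lies at the centre itself, and that of Rpl10a is on a mobile stalk by the tRNA exit site.

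At the mouth of the exit tunnel, where chaperones and targeting factors dock, 2 of 7 genes were called lower and 6 of 7 were below 0. Rpl26 fell from 64.8, 55.1, 49.1 and 58.1 CPM to 33.7 and 34.0 CPM (-0.75, SE 0.14, adjusted p = 0.0143). Rpl19 fell from 29.9, 32.9, 32.0 and 33.6 CPM to 21.2 and 17.97 CPM (-0.72, SE 0.14, adjusted p = 0.0177). The remaining 5, Rpl17, Rpl23a, Rpl31, Rpl35 and Rpl39, all had WT means near or under 10 CPM. Rpl26 lost its call without KO 1 and without KO 2 (adjusted p = 0.0814 and 0.0771). Rpl19 lost its call without WT 2, WT 3 or KO 2 (adjusted p = 0.050028, 0.0612 and 0.105), without WT 3 and WT 4 together (0.0854) and with the replicate number as a block (0.0816). Rpl5 and Rpl11 form, with the smallest ribosomal RNA, the particle that binds Mdm2 when assembly fails. Neither was called, at log2 fold changes of -0.29 and -0.33 (adjusted p = 0.480 and 0.294), and neither had an unadjusted p under 0.05 or a call by DESeq2 or limma voom.

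Other large subunit genes with large falls were Rpl22l1, Rpl34, Rpl36, Rpl30 and Rpl21. Rpl34 fell from 156, 121, 141 and 161 CPM to 83.2 and 75.9 CPM (-0.87, SE 0.14, adjusted p = 8.04e-03). Rpl36 fell by 0.79 (adjusted p = 0.0110), from a WT mean of 65.8 ± 5.84 CPM (SD, n = 4), and Rpl30 by 0.79 (adjusted p = 0.0335), from 25.01 ± 4.05 CPM. Rpl21 fell by 0.77 (adjusted p = 8.11e-03), from 41.2 ± 4.15 CPM. In all of these both KO libraries lay below every WT library. Further large subunit genes called lower included Rpl18, Rpl41, Rpl32, Rpl13a, Rpl32l, Rpl37rt, Rpl37a, Rpl7, Rpl23, Rpl29 and Rpl14. Among them Rpl32, at 1267 CPM per kb in WT, was the most abundant per kb and fell by 0.58 (adjusted p = 0.0207, and 0.0716, 0.0542 and 0.129 without WT 1, KO 1 and KO 2). Rpl32l lost its call in 7 of the 20 alternatives, among them library-size scaling (adjusted p = 0.062) and the fits without WT 1, WT 3, KO 1 or KO 2 (0.0790 to 0.202). Rpl37rt lost its call without WT 1, KO 1 or KO 2 (adjusted p of 0.0735 to 0.110). Rpl18 lost its call without KO 2 (adjusted p = 0.0842), Rpl13a without KO 1 or KO 2 (0.0514 and 0.0572), and Rpl41 on omitting WT 1, WT 3, KO 1 or KO 2 (0.0571 to 0.155). Rpl23, Rpl29 and Rpl14 each lost theirs in 5 of the 6 fits that left out a library, all but the one without WT 4, and with library-size scaling, at adjusted p of 0.0523 to 0.179. Rpl37a, at an adjusted p of 0.0484, lost its call in 10 of the 20 alternatives (0.0543 to 0.248). The calls of Rpl34, Rpl36 and Rpl21 were lost without KO 2, at adjusted p of 0.0603, 0.0845 and 0.0575. Rpl30 lost its call when any library other than WT 2 was left out, with adjusted p of 0.0537 to 0.151.

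In the small subunit, Rps29 had the largest fall of all 89 genes. It is a small zinc-binding protein of the subunit head, and its message was at 9.80, 6.33, 7.14 and 9.45 CPM in WT and 2.49 and 3.42 CPM in KO, or 119 to 242 counts in WT and 43 and 92 in KO. This was a fall of 1.47 on the log2 scale (SE 0.33, adjusted p = 0.0277). Its call was lost in 5 of the 6 fits that left out a library (adjusted p of 0.0594 to 0.139). Rps15a fell from 364, 282, 296 and 364 CPM to 192 and 166 CPM (-0.87, SE 0.15, adjusted p = 9.09e-03). Rps3a1, at chr3:86137940-86142668, fell from 204, 173, 161 and 190 CPM to 100 and 102 CPM (-0.85, SE 0.13, adjusted p = 6.17e-03). The Rps3a1 call held in all 20 alternatives, whereas Rps15a lost its call without KO 2 (adjusted p = 0.0746). Rps16 fell by 0.71 (adjusted p = 0.0104) and was at 0.0853 without KO 2.

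Along the path of the message, the exit side was lower than the entry side in its median. At the exit, 3 of 5 genes were called lower, with a median log2 fold change of -0.69. Both KO libraries lay below every WT library in all 5, against 61 of the 89 family genes and 18.8% of all tested genes. Those called at the exit were Rps21, Rps14 and Rpsa, the last also known as the laminin receptor. Rps21 fell from 279, 223, 243 and 274 CPM to 130 and 156 CPM (-0.84, SE 0.14, adjusted p = 8.87e-03), and Rps14 from 590, 512, 582 and 656 CPM to 353 and 372 CPM (-0.69, SE 0.12, adjusted p = 9.67e-03). Both lost their calls without KO 1, at adjusted p of 0.0752 and 0.0676, and Rpsa was at 0.0501 to 0.0912 when WT 1, WT 3, KO 1 or KO 2 was omitted. Rps28, at 2.19, 1.38, 2.88 and 2.70 CPM in WT and 1.04 and 0.928 CPM in KO, was not called (-1.20, SE 0.57, adjusted p = 0.207). At the decoding site and the entry channel, 2 of 6 genes were called lower, with a median of -0.40, and all 6 were below 0. Rps3, which forms the entry of the channel, fell from 2055, 1999, 1832 and 2311 CPM to 1373 and 1409 CPM (-0.56, SE 0.09, adjusted p = 9.57e-03, and 0.0615 without KO 2). Rps15, which reaches the decoding site, fell by 0.44 (adjusted p = 0.0195), but was at 0.0533 to 0.109 without WT 1, WT 3, KO 1 or KO 2. The difference between the 2 sides was not tested.

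The most abundant genes per kb had values in the same direction. Beside Rplp1, these included Rpl8 at 1887 CPM per kb in WT, Rps27rt at 1879 and Rps15 at 1573. Rpl4 was at 1284, Rpl32 at 1267 and Rps20 at 1107 CPM per kb. Rps20 was at 540, 565, 512 and 606 CPM in WT and at 460 and 429 CPM in KO without passing the test (-0.32, SE 0.10, adjusted p = 0.0706), though DESeq2 called it (adjusted p = 0.0145). At the other end, Rpl39 was at 2.56 CPM per kb and Rps28 at 6.98. Rpl39l was at 0.560 CPM per kb, and Rpl10l and Rpl3l had 0 counts in WT. For 86 of the 91 genes, the share of 75-base words of the coding transcript found in no other transcript could be computed, a measure of how uniquely reads map. The 34 tested genes with less than 50% unique words had a median of 42.6 CPM per kb, and the 50 with at least 50% had 158 CPM per kb. Their median log2 fold changes were close, at -0.49 and -0.48, with 13 and 28 called lower.

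Several ribosomal proteins are encoded by related gene pairs. In some pairs the copies had close fold changes, as in Rps27 and Rps27rt, Rpl32 and Rpl32l (-0.58 and -0.55), Rpl6 and Rpl6l (-0.33 and -0.33, neither called) and Rpl37 and Rpl37rt (-0.42, not called, and -0.50), while in others they did not. Rps27 and Rps27rt encode nearly the same protein, and Rps27rt, at chr9:114982366-114982739, spans no more than its own 374-base exon. Rps27rt fell from 738, 630, 678 and 765 CPM to 415 and 408 CPM (-0.77, SE 0.11, adjusted p = 4.49e-03), in all 20 alternatives. Rps27 itself fell from 23.8, 22.4, 30.9 and 27.2 CPM to 15.5 and 12.9 CPM (-0.88, SE 0.18, adjusted p = 0.0185). Of the 75-base words, 9.67% were unique in Rps27rt and 39.3% in Rps27, so much of the reads of Rps27rt, and part of those of Rps27, cannot be assigned to 1 gene. Rps27l, known as a target of p53, was at 31.4, 39.3, 33.8 and 31.9 CPM in WT and 36.1 and 36.5 CPM in KO (0.09, SE 0.13, adjusted p = 0.693), and 95.6% of its words were unique. Without WT 3, KO 1 or KO 2 the adjusted p of Rps27 was 0.0634, 0.0702 and 0.0970.

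Rpl22 and Rpl22l1 are a pair in which the first binds RNA in lymphocytes and represses the message of the second. Rpl22l1, at chr3:28805508-28807424, fell from 35.9, 34.4, 42.9 and 44.7 CPM to 23.7 and 17.3 CPM (-0.96, SE 0.18, adjusted p = 0.0150). Rpl22 was at 332, 293, 297 and 362 CPM in WT and at 239 and 248 CPM in KO, with no overlap, and did not pass the test (-0.40, SE 0.12, adjusted p = 0.0611). DESeq2 called Rpl22 lower (adjusted p = 9.21e-03). The Rpl22l1 call was lost without WT 3 (adjusted p = 0.058) and without KO 2 (0.102).

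Rps4l was the only ribosomal protein gene called higher. The related gene on the X chromosome, Rps4x, fell by 0.54 (adjusted p = 0.0151; 0.058, 0.0812 and 0.0853 without WT 1, KO 1 and KO 2). Rps4l was at 11.7, 10.5, 10.3 and 13.6 CPM in WT and at 16.2 and 34.4 CPM in KO 1 and KO 2 (1.07, SE 0.25, adjusted p = 0.0293). Most of the difference came from KO 2, which had 925 counts: without it the log2 fold change was 0.54 (adjusted p = 0.236), and it was 0.0669 without WT 2 and 0.0733 without WT 3. Rpl7 fell from 617, 593, 573 and 669 CPM to 452 and 440 CPM (-0.46, SE 0.09, adjusted p = 0.0203, and 0.0509 to 0.118 without WT 1, WT 3, KO 1 or KO 2), whereas Rpl7l1, a paralog found in assembling rather than finished ribosomes, was at 86.3, 88.4, 87.9 and 83.1 CPM in WT and 88.6 and 82.2 CPM in KO (-0.02, SE 0.10, adjusted p = 0.926). Rpl36al and Rpl36a, which encode almost the same protein, were at -0.41 and -0.66 with adjusted p of 0.0896 and 0.153. Rpl39l, best known from the testis, had 5 to 26 counts in WT and 30 and 8 in KO, and was not called (adjusted p = 0.594). Rpl32l was at 197 CPM per kb in WT, below its parent Rpl32 at 1267. Rpl6l at 181 CPM per kb was above Rpl6 at 88.6, and Rpl37rt at 648 was above Rpl37 at 26.3. Where copies are near-identical, how their reads were divided is uncertain.

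**Figure D4:**
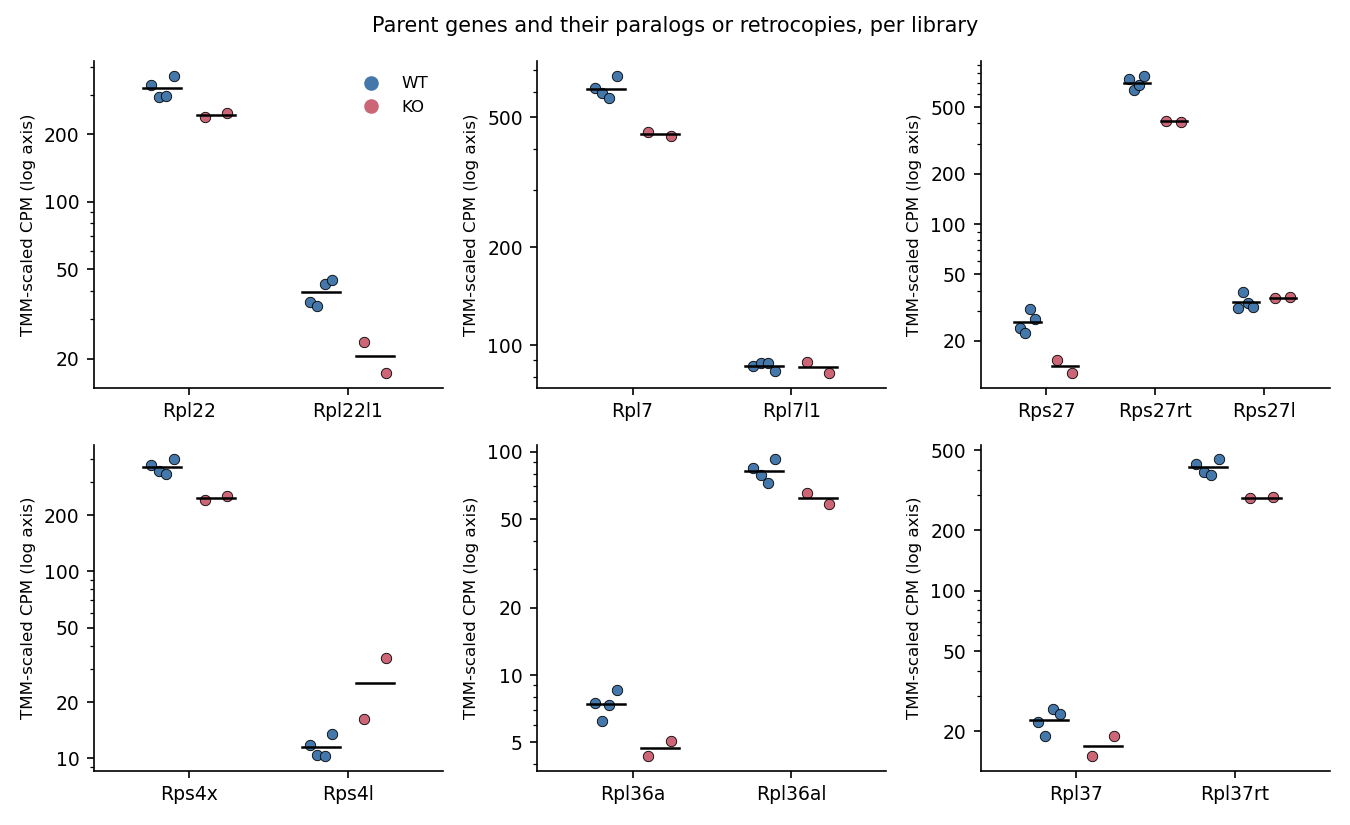
TMM-scaled CPM (log axis) of related ribosomal protein genes, with each point a library (WT in blue, KO in red) and each line a group mean. Rps27rt, Rps27, Rpl22, Rpl22l1, Rpl7, Rps4x, Rpl36a, Rpl36al, Rpl37 and Rpl37rt are lower in both KO libraries than in any WT library, Rps27l and Rpl7l1 overlap between groups, and Rps4l reaches 34.4 CPM in KO 2.

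Another list held 9 of the ribosomal protein genes mutated in inherited anaemia (Diamond-Blackfan anaemia). Like the other lists, it was chosen with earlier results of these data known. All 9 listed genes were below 0, against 80 of the 89 family genes. Of the 9, 3 were called lower, Rps24 and Rps19 among these, against 43 of the 89 and 5.58% of all tested genes. Rps24 kept its call in all 20 alternatives, while Rps19 lost its call in 10 of them, among these every fit that left out a library (adjusted p of 0.0507 to 0.220). Of the 23 tested pseudogene copies, 1 was called lower, Rpl36-ps12 (-0.70, adjusted p = 7.26e-03). Without KO 1 its log2 fold change was -0.65 and the call was lost. The median of the 23 copies was -0.44, beside -0.48 over the 89 ribosomal protein genes. No median was taken over their parent genes alone, and reads of near-identical copies and parents can be mixed. Fau and Rack1 encode ribosomal proteins under other names. Neither was called by edgeR, at -0.47 and -0.34 with adjusted p of 0.125 and 0.0744, although both had an unadjusted p under 0.05. DESeq2 called Rack1 (adjusted p = 0.0195) and limma voom called neither.

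Of 39 translation factors, 7 were called lower, against 5.58% of all tested genes, none higher, and 32 were not called. Their log2 fold change was below 0 for 34, with a median of -0.20, and the difference from the ribosomal protein genes was not tested. The 7 were Eif3f, Tpt1, Pabpc1, Eef2, Eef1a1, Eef1b2 and Eef1g, most of which have TOP messages. Eef1a1, which brings the tRNA to the ribosome, was at 7170.01, 7247, 6710.3 and 8037 CPM in WT and 5356 and 5548 CPM in KO, and kept its call in all 20 alternatives. Eef2, which moves the ribosome along the message, had an adjusted p of 0.0539 when KO 1 was omitted and 0.0511 when KO 2 was. Eef1b2 lost its call in 10 and Eef1g in 8 of the 20 alternatives, at adjusted p of up to 0.209 and 0.158. Pabpc1, which binds the poly(A) tail, fell by 0.48 (adjusted p = 0.0115, and 0.0518 and 0.0639 without KO 1 and KO 2). Tpt1, whose protein is known as TCTP, fell by 0.53 (adjusted p = 0.0171, and 0.0636, 0.0513 and 0.101 without WT 1, KO 1 and KO 2). Eif3f, a part of an initiation complex, fell by 0.54 (adjusted p = 9.58e-03, and 0.0713 without KO 1). The 22 genes of mTOR signalling and of Myc and its partners had a median of -0.02, and edgeR called none of them. Among these 22, an unadjusted p under 0.05 was found for 2 lower and 2 higher, and DESeq2 and limma voom each called 1 lower. The 61 genes of ribosome biogenesis, which process ribosomal RNA and join it to the proteins, had a median of 0.04 and again no call by edgeR, with 1 lower and 5 higher at an unadjusted p under 0.05 and 3 called higher by DESeq2 and 1 by limma voom. The 14 genes of RNA polymerase I, which makes ribosomal RNA, had a median of 0.04, and Ubtf alone was called, lower by 0.37 (adjusted p = 0.0389, lost in 5 of 6 fits that left out a library, at 0.0943 to 0.174). Of the 77 mitochondrial ribosomal protein genes tested, 2 were called lower, Mrpl9 (-0.72, adjusted p = 5.60e-03) and Mrpl58 (-0.49, adjusted p = 0.0389, lost in 5 of 6 fits that left out a library, at 0.0664 to 0.205), with a median of -0.04. Snhg8, a host of small nucleolar RNAs, fell by 1.11 (adjusted p = 0.0183, and 0.117 without KO 1), but the median of its list of 9 genes was 0.08. Of 11 tested p53 and ribosome stress genes, Bbc3 alone was called, lower by 1.06. In contrast, all 15 cell cycle genes were above 0, with a median of 1.44. Of these, 9 were called higher, against 8.13% of all tested genes. Among those called was Mki67, at 103, 107, 135 and 119 CPM in WT and 548 and 262 CPM in KO.

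**Figure D5:**
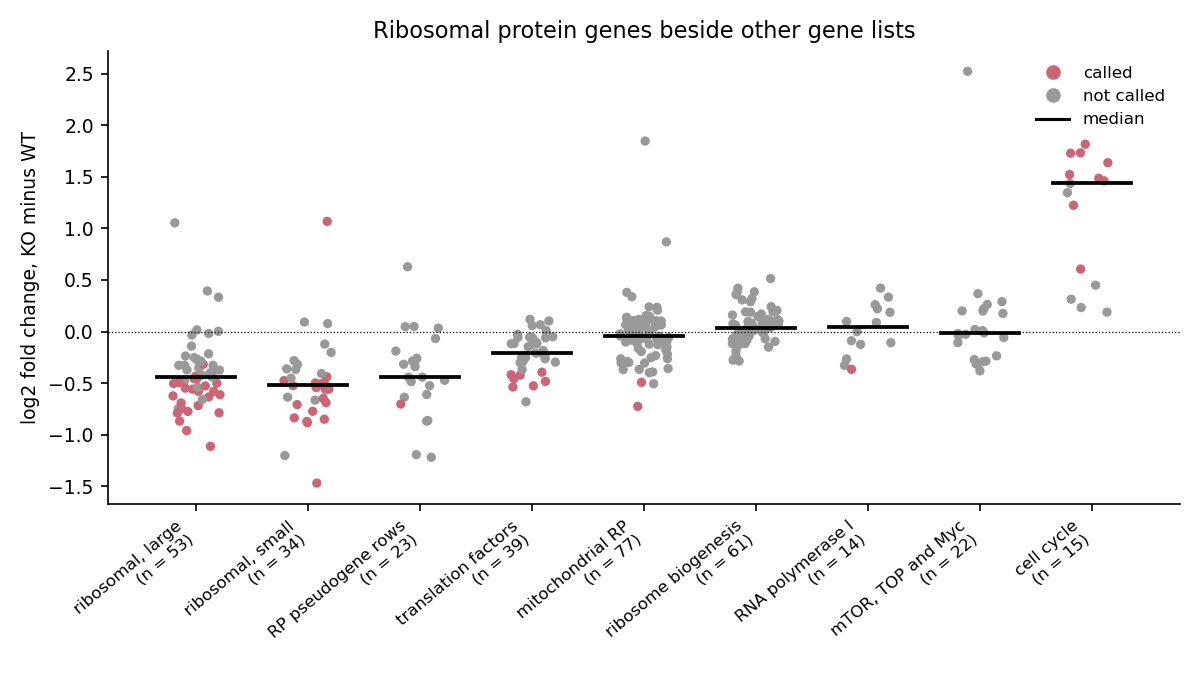
Log2 fold change of KO against WT for the tested genes of each list, with each point a gene (called in red, not called in grey) and each line the median of the list. The medians of the large and small subunit genes are -0.44 and -0.52 and that of the translation factors is -0.20, while those of the ribosome biogenesis, RNA polymerase I and mitochondrial ribosomal protein genes are 0.04, 0.04 and -0.04.

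Short genes differed more than long ones, inside and outside the family. Among genes of at least 10 CPM, ribosomal protein genes under 500 bases had a median log2 fold change of -0.73 (10 genes) and those of 500 to under 750 bases -0.50 (26 genes). Those of 750 to under 1000 bases had -0.35 (18 genes), those of 1000 to under 2000 bases -0.48 (14 genes) and those of 2000 bases or more -0.34 (4 genes). Other genes had medians of -0.19 under 500 bases (96 genes), -0.20 from 500 to under 750 (218 genes), -0.10 from 750 to under 1000 (309 genes), -0.07 from 1000 to under 2000 (1879 genes) and -0.01 from 2000 bases (6415 genes). In each of these 5 ranges the median of the ribosomal protein genes was below that of the others. Spearman's rho between length and log2 fold change across the 89 genes, which share their libraries, was 0.35. The part of gene length in the result was not tested.

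The difference between KO and WT was also compared between the sexes as labelled, with 1 KO library of each. The interaction term of edgeR called 0 of the 89 genes, as it called 0.0% of all tested genes. At an unadjusted p under 0.05 there were 3 of the 89, and the lowest adjusted p was 0.450.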

How the data were processed

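RNA was measured by RNA-seq in 6 libraries, 4 WT and 2 KO, each from an individual mouse. The authors deposited read counts for each Entrez gene ID as whole numbers without normalization, and per the submitters' processing notes used featureCounts and the mm10 build. For the aligner and for versions, the sources used here give nothing. Per the labels' protocols, libraries came from SMART-Seq v4 amplified cDNA, a kit that does not mark strand. Reads of overlapping genes can therefore be split or mixed. The same holds for reads of near-identical copies, with or without strand, since the copies share sequence. Amplified reads are not independent molecules, so intervals and floors cover counting error only. The single-sample files held the same counts as the table, and 0 columns belonged to other samples.

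Symbols, positions and promoter windows came from RefSeq tables of GRCm38.p6, the build called mm10. Of the 26332 gene IDs, 25275 had a symbol, and the 1057 without held 0.623% of the counts. Totals ran from 16418910 to 31155303 counts, and 3 counts were worth 0.0963 to 0.183 CPM. Replicates differed by more than sampling noise, with chi-square per degree of freedom of 8.86 to 62.2 between WT libraries and 53.7 between KO libraries.

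All genes that passed filterByExpr (13652) were fitted with edgeR 4.0.16 in R 4.3.3, with TMM scaling, glmQLFit and glmQLFTest without the robust option, and with an additive term for the labelled sex. Benjamini-Hochberg adjustment ran over all of them, and calls were made at an adjusted p under 0.05. Unless another tool is named, every adjusted p comes from this fit, with 3 residual and 4.50 prior degrees of freedom. CPM are scaled by TMM, while shares are of the raw totals. Unique 75-base words were counted in the longest coding transcript of each gene among GENCODE transcripts. The scripts were tested on simulated data.

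The named genes were, by rule, Tcf7, up to 8 called genes per direction and subunit with the largest change, the 4 per subunit with the highest length-scaled WT level, the related copies with at least 10 counts, Fau, Rack1 and other ribosomal proteins whose symbols do not match, and up to 3 called genes of each other list. Some genes that the rule names are not reported here, and they are not drawn by name in the figures. Other genes named here were chosen after their values were seen. The gene family, the gene lists and the rule were chosen with earlier results of these data known, so no test of a list is given. Alternative fits used library-size, RLE or upper-quartile scaling, TMM computed without ribosomal protein genes, a fit without the sex term, no filter, a filter of 5 CPM in 2 libraries, a replicate block, limma 3.58.1 voom with and without sample weights, DESeq2 1.42.0, robust quasi-likelihood, pseudogene counts added to their parents, each library left out in turn, and WT 3 and WT 4 left out together.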

Additional observations from a re-analysis of the deposited data

How the results depend on the processing

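Of the 20 alternative fits, all kept the median of the ribosomal protein genes below 0, between -0.55 and -0.39. The 43 genes called lower became 29 with the replicate number as a block, 29 without WT 3 and WT 4 together, and 7 to 38 with a library left out. With 1 KO library left, that library is assumed to vary like the WT libraries. The other settings gave 35 (library-size scaling) to 52 (DESeq2) calls. Library-size scaling moved the median of all genes to 0.10 and that of the ribosomal protein genes to -0.39, and raised the share of all calls that were higher from 59.3% to 71.9%. The count of genes called higher, 1 for Rps4l, was 0 to 1 with a library left out: Rps4l kept its call without WT 1, WT 4 or KO 1 and lost it without WT 2, WT 3 or KO 2. The count was 0 with the replicate block and without WT 3 and WT 4 together. Rps4l, Rplp2, Rpl4, Rpl14, Rpl19, Rpl23, Rpl29, Rpl30, Rpl32l, Rpl37a, Rps19, Rps27 and Rps29 lost their calls under both of these nearly equal fits. Their adjusted p was 0.0575 to 0.127 and 0.0529 to 0.125.

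The replicate block called 29 genes lower. The correlation of deviations from the group mean was 0.128 for WT 1 with KO 1 and 0.000 for WT 2 with KO 2. With 2 KO libraries these deviations mirror each other, and WT 1 with KO 2 gave -0.128. The check therefore cannot judge the pairs separately or decide whether samples were paired. The main fit did not take the numbers to pair the samples.

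Without the 2 genes of highest count, the shares were 0.779% (WT) and 0.560% (KO) for the large subunit and 0.694% and 0.521% for the small one, with ratios of 1.12 and 1.07. With pseudogene counts added, the KO shares were 0.859% and 0.776% and the ratios 1.11 in WT and 1.11 in KO.

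Among single genes, 1269 of the values kept their direction and side of the threshold, 198 lost and 11 gained a call, and 18 changed sign, all in genes that were not called. These were Rpl7l1 (0.065 with library-size scaling, 0.011 with the strict filter, and -0.068 to 0.019 with a library left out), Rpl39l (-0.99 to 2.48 with a library left out) and Rpl39 (-0.57 to 0.018 with a library left out). Rps19bp1 was at -0.0039 with the block, -0.0023 without WT 3 and WT 4 together, and -0.056 to 0.12 with a library left out. Rpl12 was at -0.0027 with TMM without ribosomal protein genes, -0.0021 with no filter, -0.011 with voom, -0.020 with sample weights, and -0.44 to 0.40 with a library left out. The cause was not tested. The 17 tested genes with a mean under 10 CPM had a median standard error of 0.33, against 0.12 for the 72 of at least 10 CPM. Of these, 1 of the 17 and 42 of the 72 were called lower, beside 5.58% of all tested genes.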
